A study of Mus musculus with 2 samples.

Results

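The cytosolic nucleic acid sensors described here are 10 mouse genes of the sensing of foreign or misplaced RNA and DNA, among them receptors, an adaptor, and enzymes that act on nucleic acids or their building blocks. They were chosen by symbol from the 55536 annotated gene entries of the deposited tables, and all 10 symbols were matched: Ddx58, Ifih1, Dhx58, Mavs, Eif2ak2, Zbp1, Adar, Zc3hav1, Samhd1 and Trex1. The samples were primary bone-marrow-derived macrophages of the strain C57BL/6J that were given 100 ng/ml Lipid A, the Toll-like receptor ligand of bacterial lipopolysaccharide, for 60 min. Nucleoplasmic RNA, from inside the nucleus but not bound to chromatin, was depleted of ribosomal RNA and sequenced in 2 libraries of 1 group, replicate 1 from 1 µg and replicate 2 from 500 ng of RNA. Both biosamples carry the same donor label, no genetic change is labelled, and sex and age were not collected, per the labels. Unstimulated cells and other fractions were not analysed here, so that every value is a level after stimulation and none is a response. With 1 group no test was possible, and the spread given is that of the 2 libraries, which may be smaller than that between animals. Markers of the fraction's purity were not examined.

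RIG-I-like receptors are helicases that bind viral RNA in the cytosol. RIG-I and MDA5 pass the signal through caspase recruitment domains to MAVS, an adaptor on the mitochondrial surface, which leads to the kinases TBK1 and IKKε, the transcription factors IRF3 and IRF7 and the production of type I interferon. Other sensors act on the RNA or DNA itself, by halting translation, editing or degrading it, or by triggering cell death, and several limit the sensing of the cell's own nucleic acids. In macrophages many of these genes belong to the interferon-stimulated genes. The RNA measured here lies upstream of all these functions, since it is the transcripts of the sensor genes in the nucleus.

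The gene tables held 21115765 expected counts on annotated genes in replicate 1 and 15607391 in replicate 2. TPM is a share of a library's transcripts after correction for length, and genes are compared with each other on this scale. Protein-coding genes of the nuclear genome held 25.43% of all TPM in replicate 1 and 18.8% in replicate 2. Across 8622 expressed protein-coding genes, TPM in replicate 2 had a median log2 ratio of -0.42 to replicate 1, and this shift enters every pair of TPM values below. All 8 macrophage markers examined reached 10 TPM in each library, with a sum of 3306 in replicate 1 and 3015 in replicate 2. No marker of T and NK cells, B cells, neutrophils, erythroid cells, fibroblasts or dendritic cells reached a TPM of 1 in both libraries. The summed TPM of these lists lay between 0 and 1.88, and Cd3d, Cd3e, Cd3g, Ncr1, Cd79a and Hba-a1 were at 0 in both.

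Sensor genes spanned a wide range of levels, with the gene of MDA5 at the top and that of MAVS at the bottom. Of the 10 genes, 9 reached 10 TPM in both libraries, beside 14.4% of all 22015 nuclear protein-coding genes (mitochondrial genes left out). The median of log2(TPM + 1) over the 10 genes was 5.47 in replicate 1 and 4.74 in replicate 2, or 5.10 ± 0.51 (SD, n = 2). Over all protein-coding genes it was 0.32 ± 0.05 (SD, n = 2). Because the genes were chosen with earlier results of these libraries known, the higher median describes the choice as well as the cells. In bulk RNA, fewer cells that express a gene and less of its RNA per cell cannot be told apart.

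**Figure D1:**
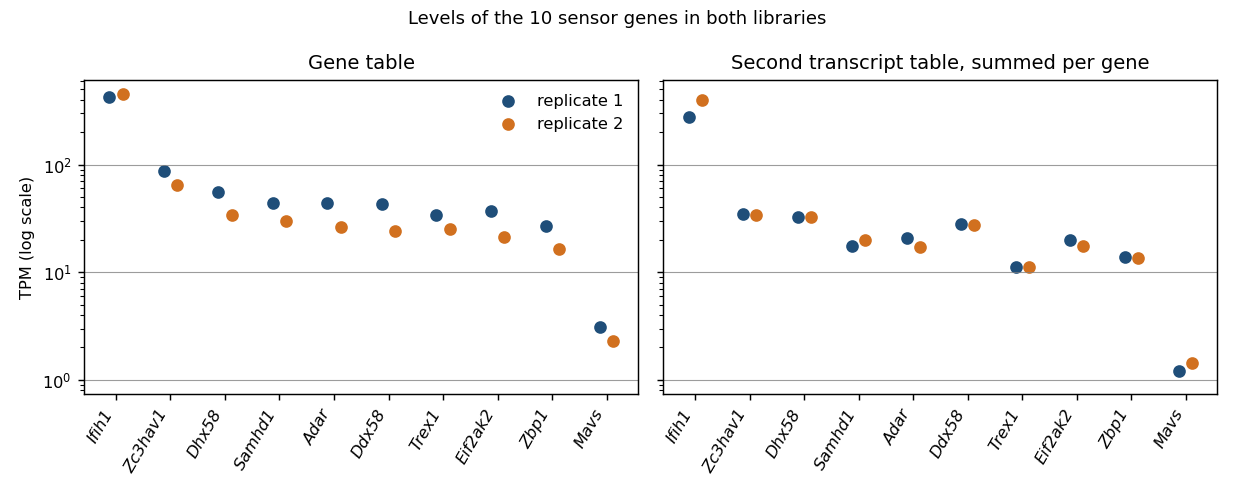
TPM of each sensor gene (log axis) in replicate 1 and replicate 2, in the gene table (left) and in the second transcript table summed per gene (right), with 1 point per library. Ifih1 stands above all others at 429 and 453 in the gene table, Mavs lies lowest at 3.07 and 2.32, and the other 8 genes fall between 16.4 and 88.0.

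Among the RIG-I-like receptors, Ifih1, which encodes MDA5, the sensor of long double-stranded RNA, was by far the highest. Replicate 1 gave it a TPM of 429 and replicate 2 one of 453, from 31993 and 31429 expected counts. It ranked 61 and 41 among the 22015 protein-coding genes. The gene lies on chromosome 2 from 62595798 to 62646255 on the minus strand (mm10) and has 5 annotated transcripts. Ddx58, which encodes RIG-I, the sensor of RNA with a free triphosphate end, had a TPM of 42.7 and 24.2, from 2720 and 1509 expected counts (chromosome 4, 40203773 to 40239828, minus strand). Dhx58 encodes LGP2, a helicase of the same family that lacks the signalling domains and modulates MDA5 and RIG-I. Its TPM was 55.6 and 33.8, from 1836 and 1074 expected counts (chromosome 11, 100694884 to 100704271, minus strand).

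Ifih1 thus exceeded Ddx58 by 10-fold in replicate 1 and 18.7-fold in replicate 2. In the second transcript table, quantified from the reads in another way, the excess was 9.86-fold and 14.6-fold. With protein-coding transcripts alone it was 8.07-fold and 14.3-fold in the first table. The direction and a difference of at least 8.07-fold held in each of these 6 values, while the size differed between the libraries. Ddx58 stood below its relative Dhx58 in both libraries, at 0.768 and 0.717 times its TPM, and at 0.878 and 0.837 times in the second table.

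Mavs, the adaptor gene on which both receptors depend, was the lowest of the 10 at a TPM of 3.07 and 2.32 (chromosome 2, 131234063 to 131248025, plus strand). Its 202 expected counts in replicate 1 have an exact Poisson 95% interval of 175.1 to 231.9, and its 143 in replicate 2 one of 120.5 to 168.5, for counting error only. Ifih1 exceeded it by 140-fold and 195-fold, and Ddx58 by 13.9-fold and 10.4-fold. The sizes moved with the counting. Ifih1 exceeded Mavs by 229-fold and 282-fold in the second table and by 56.6-fold and 72.1-fold with protein-coding transcripts alone. For Ddx58 over Mavs the second table gave 23.2-fold and 19.3-fold, and protein-coding transcripts alone 7.02-fold and 5.03-fold. Mavs was nevertheless not rare among genes, ranking 6864 and 6907 of 22015. In the first transcript table nearly all of its TPM was on transcripts that encode the 503-residue protein, and Mavs-201 held 74.9% in replicate 1 and 100% in replicate 2. The second table gave Mavs-201 53.4% and 74.9%, and put 16.6% and 20.7% of the gene outside protein-coding transcripts. Mavs-203, a target of nonsense-mediated decay and the leading form that is not protein-coding, had 0.15 and 0.

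The double-stranded RNA kinase gene Eif2ak2 encodes PKR, which phosphorylates the translation initiation factor eIF2α and so halts protein synthesis. Its level was 37.4 TPM in replicate 1 and 21.1 in replicate 2 (chromosome 17, 78852564 to 78882573, minus strand). Zbp1, whose protein binds nucleic acid in the left-handed Z form and can start necroptosis, had 26.7 and 16.4 (chromosome 2, 173206612 to 173218923, minus strand). Both were higher in replicate 1 than in replicate 2 in TPM, as were all members except Ifih1.

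Adar encodes the deaminase that converts adenosine to inosine in double-stranded RNA, which keeps MDA5 from responding to the cell's own transcripts. Its TPM was 43.7 in replicate 1 and 26.3 in replicate 2 (chromosome 3, 89715022 to 89753446, plus strand). Zc3hav1, which encodes the zinc finger antiviral protein ZAP, a binder of CpG-rich RNA that recruits decay factors, was the second highest member at 88.0 and 64.4 (chromosome 6, 38305286 to 38354603, minus strand). It exceeded Adar by 2.01-fold and 2.45-fold, by 1.66-fold and 1.98-fold in the second table, and by 3.31-fold and 3.52-fold with protein-coding transcripts alone.

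In the gene table, genes that act on DNA or its building blocks were of middle rank. Samhd1 encodes an enzyme that breaks down deoxynucleotides and so limits reverse transcription. Its level was 44.3 TPM in replicate 1 and 30.1 in replicate 2 (chromosome 2, 157097533 to 157135265, minus strand). Trex1 encodes the main exonuclease for DNA in the cytosol and had 34.0 and 25.2, from 708 and 491 expected counts (chromosome 9, 109057933 to 109059734, minus strand). In the second table Trex1 had 11.1 and 11.2, below Zbp1 at 13.9 and 13.5. All 1147 exonic bases of Trex1 also lie in exons of Atrip, a gene on the same strand that encodes a partner of the checkpoint kinase ATR. Atrip itself had a TPM of 4.82 and 4.83, and the division of reads between the 2 genes is uncertain.

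Ordered by mean TPM, the genes ran Ifih1, Zc3hav1, Dhx58, Samhd1, Adar, Ddx58, Trex1, Eif2ak2, Zbp1 and Mavs. Ifih1 exceeded Zc3hav1 by 2.55 ± 0.37 on the log2 scale, Zc3hav1 exceeded Dhx58 by 0.80 ± 0.19, and Zbp1 exceeded Mavs by 2.97 ± 0.21 (all SD, n = 2). The lead of Ifih1 over Zc3hav1 was 4.88-fold and 7.03-fold in the gene table, 7.99-fold and 11.8-fold in the second table, and 1.88-fold and 2.60-fold with protein-coding transcripts alone. The middle of the order was not resolved. Samhd1 and Adar differed by 0.11 ± 0.12 (SD, n = 2), within the spread, and the differences of Trex1 from Ddx58 and from Eif2ak2 changed sign between the libraries. In the second table Ddx58 lay above Adar, with log2 differences of Adar over Ddx58 of -0.43 and -0.68, and Zc3hav1 and Dhx58 were almost level, at 0.12 and 0.05. Trex1 lay below Ddx58 and Eif2ak2 in both libraries of that table. Ddx58 exceeded Trex1 by 1.35 and 1.30, and Trex1 over Eif2ak2 gave -0.86 and -0.65. The plot of levels shows the same highest and lowest gene in both tables.

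Annotated transcripts that encode no full protein took a large share of several sensor genes. The deposited transcript tables divide each gene among its GENCODE transcripts, which include retained-intron forms, processed transcripts without an open reading frame and targets of nonsense-mediated decay. Over all 10 genes the median share of TPM outside protein-coding transcripts was 42.2 ± 0.682% (SD, n = 2). Of the 8 genes annotated with more than 1 transcript type, 3 had over 50% outside in both libraries, namely Ifih1, Dhx58 and Ddx58, beside 22.4% of 7258 such protein-coding genes. The median of these 8 genes was 46.5% in replicate 1 and 45.4% in replicate 2, beside 33.0% and 32.4% over the 7258. As a share of expected counts, which are not corrected for length, the median over all 10 genes was 15.0%, so that short transcripts weigh heavily in the TPM share. Of the 8 genes, 4 had over 50% outside in both libraries of the second table, with Eif2ak2 as the addition, beside 38.3% of the 7258. The medians in that table were 52.3% and 50% for the 8 genes, beside 44% and 46.7% over the 7258. The gap was smaller there, so its size depends on the table.

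**Figure D2:**
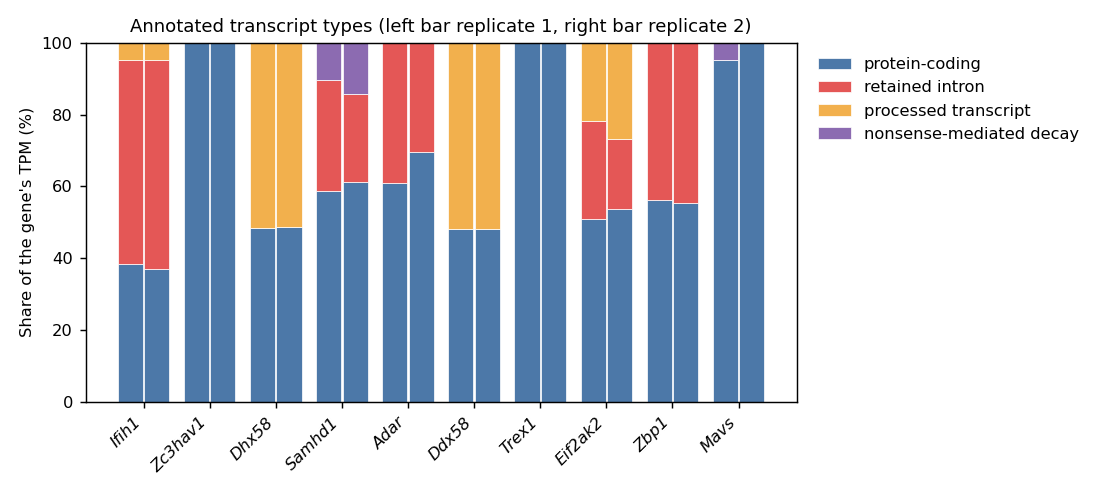
Share of each gene's TPM (percent, stacked to 100) on 4 annotated transcript types in the first transcript table, with the left bar of each pair for replicate 1 and the right bar for replicate 2. The retained-intron share of Ifih1 is 56.7% and 58.2%, processed transcripts take 52.0% and 51.9% of Ddx58, and Zc3hav1 and Trex1 have protein-coding transcripts alone.

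In Ifih1 the highest single transcript in the first table was a retained-intron form. It was the 1 gene of the 8 with over 50% of its TPM on such forms in both libraries, beside 10.7% of the 7258 genes, so that the count of members is near the general share. Ifih1-203 held 45.6% of the TPM in replicate 1 and 48.6% in replicate 2, at 195.6 and 220.1, from 11247 and 12011 expected counts. A second retained-intron form, Ifih1-205, had a TPM of 47.5 and 43.2. The coding transcripts Ifih1-201, for 1025 residues, and Ifih1-202, for 976, had 83.5 and 78.9, and 81.8 and 88.4. Together the coding pair reached 165.3 and 167.3, below the 243.1 and 263.3 of the retained-intron pair. In expected counts of the first table, retained-intron forms took 44.9% and 46.8% of the gene, and all forms outside protein-coding transcripts 45.3% and 47.2%. In both libraries of the second table the retained-intron pair again exceeded the coding pair in TPM, at 56.0% and 58.0% of their sum, against 59.5% and 61.1% in the first. Of the whole gene, however, retained-intron forms took 33.1% and 32.6% in the second table, so a share over 50% held only in TPM of the first. The second table gave the highest TPM to Ifih1-204, a processed transcript of 439 bases, at 114.2 and 175.5 against 20.6 and 22.0 in the first, so its level depends on the table.

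Ifih1-203 has 3 exons, and the last runs 1568 bases into intron 3 of the 15 introns of Ifih1-201, an intron of 11558 bases. Of its 2565 bases, 61.1% lie within that intron. Ifih1-205 ends 935 bases into intron 8. In Zbp1, the single retained-intron form Zbp1-203 keeps the whole of intron 4, 1365 bases long. The borders that set these transcripts apart from spliced mRNA are given below, because in spliced mRNA the 2 sides are not joined. Unspliced precursor RNA holds the same borders, so that it and a finished transcript with a retained intron cannot be told apart in nuclear RNA, and reads across the borders were not counted here. Each shows the last 20 bases of the exon in lower case and the first 20 of the intron in capitals, on the strand of the gene, read from the GENCODE M21 transcript sequences (mm10).
Ifih1-203, chr2:62635036-62635075: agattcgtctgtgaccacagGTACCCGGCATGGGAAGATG
Ifih1-205, chr2:62609165-62609204: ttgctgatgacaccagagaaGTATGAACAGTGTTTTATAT
Zbp1-203, chr2:173212079-173212118: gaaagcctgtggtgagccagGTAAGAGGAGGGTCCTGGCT

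Each intron begins with GT, the usual first bases of an intron. Zbp1-203 stood at 11.7 and 7.29 TPM, or 43.9% and 44.5% of the gene, and 71.8% and 71.7% of its expected counts. The full-length coding transcript Zbp1-201, for 411 residues, took 18.2% and 19.7% of TPM, and the short form Zbp1-202, for 187 residues, 37.9% and 35.8%. In the second table Zbp1-203 held 34.2% and 30.9%, and Zbp1-202 was the highest form at 52.1% and 56.8%. The retained form thus exceeded the full-length coding form in both libraries of both tables. It did not exceed the 2 coding forms together in the TPM of either table.

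Ddx58 and Dhx58, with no retained-intron form in the annotation, each had just over 50% of their TPM on processed transcripts in the first table, with 52.0% in replicate 1 and 51.9% in replicate 2 for Ddx58, and 51.7% and 51.3% for Dhx58. The second table gave 72.0% and 77.2% for Ddx58, and 66.2% and 73.5% for Dhx58. In expected counts of the first table the shares were lower, at 32.7% and 34.4% for Ddx58 and 21.3% and 22.0% for Dhx58. The coding transcripts Ddx58-201, for the 926 residues of RIG-I, and Dhx58-201, for the 678 residues of LGP2, stood at a TPM of 20.5 and 11.7, and of 26.9 and 16.4, in the first table. The highest processed forms were Ddx58-205 at 7.28 and 4.23 and Dhx58-204 at 17.0 and 9.84. In the second table the largest entry of Ddx58 was Ddx58-208, a processed form of 435 bases at 9.39 and 8.08, which the first table put at 0.92 and 0.60. Its expected counts in the first table were only 5.13 and 3.04, against 1832 and 990.6 for Ddx58-201, so its level depends on the table. Eif2ak2-201, for the 515 residues of PKR, held 51.0% and 53.8% of the TPM of its gene, and the processed form Eif2ak2-203 21.9% and 26.9%. In expected counts, all forms outside protein-coding transcripts took only 8.8% and 7.72% of Eif2ak2. In Samhd1, the coding transcript Samhd1-201 held 38.2% and 42.7%, the retained-intron form Samhd1-209 11.5% and 16.8%, and the nonsense-mediated decay form Samhd1-204 10.4% and 14.4%.

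Counting protein-coding transcripts alone changed the order of the genes. Ifih1 and Zc3hav1 remained the highest and Mavs the lowest. Trex1, which has no other transcript type, moved from the seventh to the third place, with a coding TPM of 34.0 in replicate 1 and 25.2 in replicate 2. Adar followed at 26.6 and 18.3, Samhd1 at 25.9 and 18.4, Dhx58 at 26.9 and 16.4, Ddx58 at 20.5 and 11.7, Eif2ak2 at 19.1 and 11.4, and Zbp1 at 15.0 and 9.08. These values are from the first table. In the second, Ifih1 and Zc3hav1 were again highest and Mavs lowest, but the third place was not resolved. Trex1 had 11.1 and 11.2 there, and Samhd1 11.2 and 11.0. Ddx58, at 7.94 and 6.25, lay below Eif2ak2 at 9.07 and 7.85 and Zbp1 at 9.15 and 9.34.

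Adar has alternative starts that give proteins of different length. The long form, the interferon-inducible one, begins at its own promoter, holds a Z-nucleic-acid binding domain and is found in the cytosol, whereas the short form is nuclear and made in most cells. The long form is encoded by Adar-203, for 1178 residues, and Adar-201, for 1152, and together they stood at 26.0 and 18.1 TPM. Adar-202, which starts further upstream and encodes the short form of 930 residues, had 0.54 and 0.20, or 2.03% and 1.09% of the sum of the 3 transcripts. The second table gave 1.74% and 0.817%. The estimate for Adar-202 was poorly determined, with 75.2 and 25.9 expected counts and a deposited posterior SD of 51.5 and 29.96 counts. The leading retained-intron form, Adar-208, had a TPM of 11.95 and 6.45, and in the second table, at 8.203 and 5.824, it was the highest of all Adar transcripts. It is only 708 bases long, and its expected counts in the first table were 146.3 and 73.69, against 2354 and 1761 for Adar-203. All forms outside protein-coding transcripts took 5.79% and 3.99% of the expected counts of Adar. Chrnb2, a gene on the opposite strand, shares 16.8% of the exonic bases of Adar and had a TPM of 2.40 and 1.73.

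Zc3hav1 is also made in longer and shorter forms, of which the longest carries a domain related to poly(ADP-ribose) polymerases at the end of the protein. Transcripts for the longer forms, Zc3hav1-203 with 996 residues and Zc3hav1-204 with 946, stood at 51.3 and 46.2 TPM. Transcripts for the shorter forms, Zc3hav1-201 with 789 residues and Zc3hav1-202 with 673, had 36.7 and 18.2. The shorter forms thus took 41.7% of the gene in replicate 1 and 28.3% in replicate 2, and 41.5% and 30.9% in the second table. In TPM, which holds the shift between the libraries given above, Zc3hav1-201 stood at 27.4 and 7.12, Zc3hav1-204 at 7.76 and 3.85, Zc3hav1-202 at 9.32 and 11.1, and Zc3hav1-203 at 43.5 and 42.4. In the second table Zc3hav1-203 had 15.6 and 20.0, and Zc3hav1-201 had 7.70 and 2.06.

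**Figure D3:**
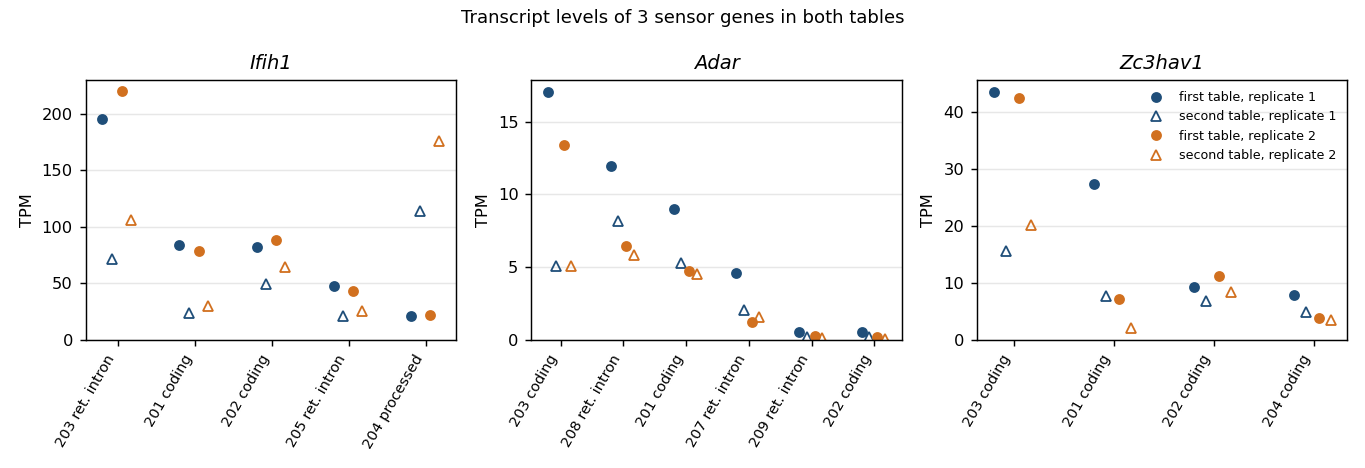
TPM of each transcript of Ifih1, Adar and Zc3hav1, with circles for the first and open triangles for the second transcript table, and colours for the replicates. Ifih1-203 leads in the first table at 195.6 and 220.1, Adar-202 lies near 0 in both tables, and Zc3hav1-201 lies at 27.4 and 7.12 in the first table. Transcripts at a TPM of 0.05 or less in every library and table are not drawn.

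Trex1 has 2 transcripts with different starts that encode the same 314 residues. Trex1-202 held 76.5% of TPM in replicate 1 and 97.3% in replicate 2, and 58.9% and 81.4% in the second table. The posterior SD of Trex1-201 was 42.4 counts for an expected count of 171.0 in replicate 1, and 22.0 for 13.9 in replicate 2, so that its share is uncertain in the latter.

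Several sensor genes carry a motif of interferon-stimulated genes at their start. The interferon-stimulated response element, which interferon regulatory factors and the interferon-activated complex ISGF3 bind, has as its core the word GAAA repeated after 2 bases. RefSeq promoters on GRCm38.p6, 250 bases before to 50 after each start, were matched for 8 of the 10 genes, and those of Dhx58 and Zbp1 were not matched. On either strand, 3 of the 8 genes held this core, namely Ifih1, Ddx58 and Eif2ak2, beside 3.99% of 27025 genes (3.44% of 32851 promoters). A looser form, GAAA and GAA 2 bases apart, was searched after the sequences had been seen, and added Adar, beside 9.76% of genes. The stretches of 30 bases are shown on the strand of the gene with the match in capitals. For Adar, the match nearest the start of the long form is shown. The looser form also matched 249 bases before that start in Adar and 112 bases before the start in Ifih1, and these are not shown.
Ifih1, chr2:62646206-62646235: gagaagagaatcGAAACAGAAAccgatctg
Ddx58, chr4:40239804-40239833: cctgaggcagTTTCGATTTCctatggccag
Eif2ak2, chr17:78882535-78882564: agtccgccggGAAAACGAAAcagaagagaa
Adar, chr3:89730738-89730767: ttttcaaggaaacGAAAGTGAActctgggg

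Counting the start as base 1, the matches began at base 33 in Ifih1, 3 in Ddx58, 19 in Eif2ak2 and 34 in Adar, and that of Ddx58 lies on the opposite strand. A match describes these letters and is not evidence that a factor was bound. Genes with the stricter core were found at both ends of the replicate comparison below and at levels from 21.1 to 453.

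Between the libraries, no sensor gene differed by more than 2-fold after normalisation, beside 119 of 10088 genes compared (1.18%). Ratios are given as log2 of replicate 2 over replicate 1. Their median over the 10 genes was -0.06, beside 0.00 over all genes, and the median absolute ratio was 0.18 in both sets. Ifih1 was the member that differed most, higher in replicate 2 by 0.47, a value above that of 93.6% of all genes compared. With TPM rescaled to sum to the same total over nuclear protein-coding genes, it had 1687 in replicate 1 and 2408 in replicate 2.

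In the gene table, a set of 4 genes lay on the other side. Ddx58 had a ratio of -0.36, Eif2ak2 one of -0.34, Dhx58 one of -0.28 and Zbp1 one of -0.26, with 10.3% to 16.4% of all genes below them. The remaining 5 were closer to level: Adar at -0.09, Trex1 at -0.03, Mavs at 0.00, Samhd1 at 0.01 and Zc3hav1 at 0.05. Rescaled TPM of Zc3hav1 was 346 and 343, that of Trex1 134 in both, and that of Mavs 12.1 and 12.3. The second transcript table gave ratios of 0.37 for Ifih1 and of -0.34, -0.28, -0.32 and -0.22 for Ddx58, Eif2ak2, Dhx58 and Zbp1. For the remaining 5 it gave -0.20 for Adar, -0.13 for Trex1, 0.05 for Mavs, 0.11 for Samhd1 and -0.02 for Zc3hav1. Adar was thus almost level with Zbp1 there, and the set of 4 was not clearly apart from the other genes. The RNA input differed between the libraries as well, and its part in these ratios was not tested.

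**Figure D4:**
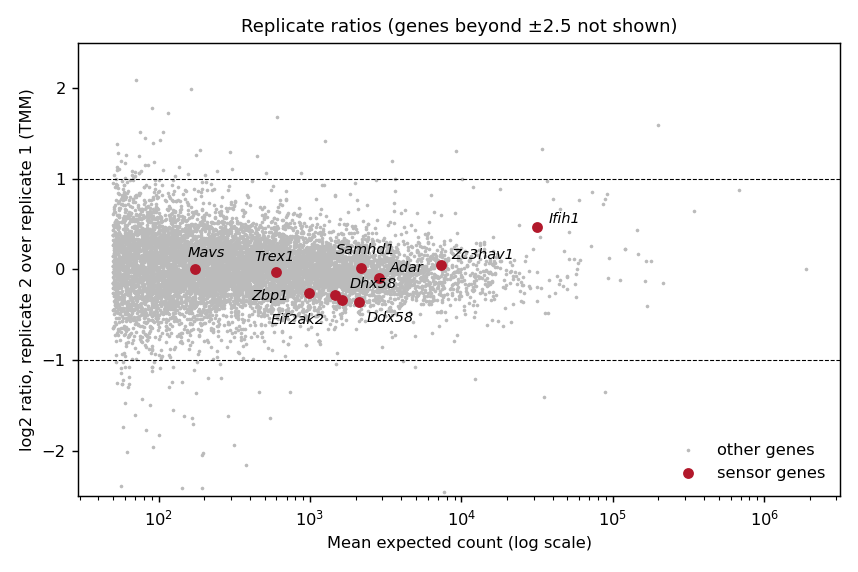
Log2 ratio of replicate 2 over replicate 1 after TMM normalisation against mean expected count (log axis) for 10088 genes (grey) and the 10 sensor genes (red), with dashed lines at 2-fold. All 10 lie between the dashed lines, Ifih1 highest at 0.47 and Ddx58 lowest at -0.36.

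Pooled over all lists, the other genes of the same pathways had a lower median. Over 54 genes in 6 lists of regulators, partners and parallel sensors, the median of log2(TPM + 1) was 3.15 ± 0.43 (SD, n = 2), against 5.10 ± 0.51 for the sensor genes. The lists differed, and that of the double-stranded RNA response, the highest, had a median of 4.53 ± 0.32 (SD, n = 2). This overlaps the spread of the sensor genes, but both spreads hold the shift in TPM between the libraries. Within each library the median of this list was the lower, at 4.76 against 5.47 in replicate 1 and 4.31 against 4.74 in replicate 2. In both libraries 48 of the 54 reached 1 TPM and 25 reached 10 TPM. Of the genes with enough counts to be compared, also 48, none differed by more than 2-fold between the libraries.

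Among regulators of the RIG-I-like receptors, 6 of 13 reached 10 TPM in both libraries. Highest were Pcbp2, which encodes an inhibitor of MAVS, at 94.0 and 68.2, and Trim25, which encodes a ubiquitin ligase linked to RIG-I and ZAP, at 64.1 and 50.04. Rnf125, a ubiquitin ligase gene that restrains RIG-I, was lowest, with 0 and 3 expected counts. Downstream of MAVS all 14 genes reached 1 TPM in both libraries, and 7 reached 10 TPM. The kinase gene Ikbke stood at 390 and 235 and the gene of its scaffold Tank at 326 and 243, both far above Mavs itself, and the adaptor gene Tradd was lowest at 3.21 and 3.02.

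Of 7 genes of DNA sensing, 3 reached 10 TPM in both libraries. Ifi204, a member of the family of DNA-binding interferon-inducible proteins, stood at 199.6 and 158.9, and Aim2, the DNA sensor of an inflammasome, at 51.0 and 45.5. The helicase gene Ddx41 was lowest by mean TPM, at 3.39 and 2.34. In the double-stranded RNA response, 5 of 8 genes did so. They included Ppp1r15a, whose product reverses the phosphorylation that PKR places on eIF2α, at 312 and 263, and the oligoadenylate synthetase gene Oas2, at 84.1 and 62.8. Adarb1, which encodes a second RNA-editing deaminase, had 12 and 11 expected counts, against 3403 and 2264 for Adar.

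Partners of ZBP1 and ZAP were moderate, with 3 of 6 genes at 10 TPM or more in both libraries. The kinase gene Ripk1 had 24.7 and 18.5, and Mlkl, which encodes the pore-forming executor of necroptosis, 17.3 and 12.7. The adaptor gene Fadd was lowest at 1.56 and 0.97. Genes of nucleotide and nucleic acid metabolism had the lowest median of the 6 lists, and 1 of 6 reached 10 TPM in both libraries. Set, whose product associates with TREX1, had 16.0 and 11.3, the RNase H2 subunit gene Rnaseh2a 3.71 and 3.57, and Rrm2, which encodes a ribonucleotide reductase subunit that makes the deoxynucleotides SAMHD1 destroys, only 0.25 and 0.24.

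**Figure D5:**
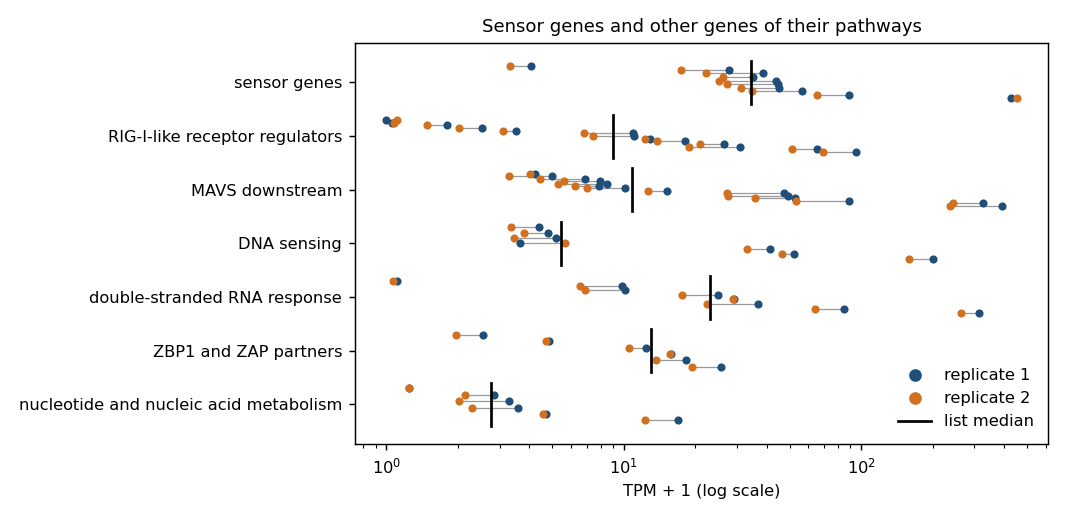
TPM + 1 (log axis) of the 10 sensor genes and of the 54 other genes in 6 lists, with 1 point per library joined by a line for each gene, and a black bar at the median of each list. The sensor genes have the rightmost median, and the genes nearest to Ifih1 are Ikbke and Tank downstream of MAVS and Ppp1r15a of the double-stranded RNA response.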

How the data were processed

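Nucleoplasmic RNA depleted of ribosomal RNA was measured in 2 libraries of 1 group, with replicate numbers taken from the labels. The expected counts deposited by the authors in a gene table and a first transcript table are estimated and not normalised, and rest on transcriptome alignments. The TPM in these tables was deposited by the authors after division by effective length. A second transcript table, made from the reads directly, holds estimated counts and TPM deposited by the authors and was summed per gene. All are on mm10 with GENCODE M21, per the deposited notes on the files. The quantifiers, their versions and the handling of strand were not given in the sources used here, so reads of overlapping genes cannot be told apart. Entries that name no mouse gene (0.662% and 0.232% of expected counts) were left out of library sizes.

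Expected counts were rounded, genes with a mean of at least 50 kept, and ratios formed after TMM normalisation (edgeR 4.0.16, R 4.3.3) with 0.5 added. DESeq2 1.42.0 size factors were an alternative. This step was tested on simulated data. Levels used log2(TPM + 1), and list medians were taken per library. Other steps used Python 3.11.15, numpy 2.4.6, pandas 2.3.3, scipy 1.17.1 and matplotlib 3.10.9. Symbols came from the second table and were the same in GENCODE M21 for all members. Named were all members, and of each other list the 2 highest and the lowest gene by mean TPM. For transcripts, the highest one in each table and the highest one that is not protein-coding were named, and others were added after their values were seen. Members, lists and motif were chosen with earlier results of these data known. Reads carry no molecular identifiers, so intervals cover counting error only.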

Additional observations from a re-analysis of the deposited data

How the results depend on the processing

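The median level of the 10 sensor genes, 5.10 on the log2(TPM + 1) scale, was 4.37 in the second transcript table, 7.26 with TPM rescaled over protein-coding genes, 6.61 in CPM of expected counts and 4.48 with protein-coding transcripts alone, an alternative chosen after seeing the data. That of the other pathway genes, 3.15, was 5.21 when rescaled, 4.85 in CPM and 3.71 over genes with a TPM of at least 1. Leaving out a library gave 4.74 to 5.47 for the sensor genes and 2.85 to 3.46 for the others. The sensor genes had the higher median in each setting that was run for both sets. The median share outside protein-coding transcripts, 42.17%, was 43.78% in the second table, 14.97% in expected counts, 39.48% with nonsense-mediated decay counted as protein-coding, and 41.69% to 42.65% without a library. The count of sensor genes past 2-fold was 0 in all 4 settings, while the share of all genes past 2-fold was 1.18% with TMM and with DESeq2 size factors, 26.1% without a filter on low counts and 3.47% in the second table. Levels of 7 of the 10 genes in the second table lay outside the spread of the libraries. Depth limits Mavs and the minor transcripts most.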
